A study of Mus musculus with 4 samples.

Results

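The genes described here are 10 genes that mark mast cells and basophils or make histamine: Hdc, Kit, Cma1, Mcpt4, Mcpt8, Tpsb2, Cpa3, Ms4a2, Fcer1a and Gata2. They were taken by name and not by a cut on their values, but with earlier results of these data known. All 10 were found among 17574 genes with a symbol. They were followed in tumours grown from SCC7, a mouse head and neck squamous carcinoma line, injected under the skin of C3H/HeN mice. The anti-CD71 group (2 libraries) was given antibody to CD71, the receptor by which cells take up transferrin-bound iron, on days 6 and 9, and the control group (2 libraries) is labelled only as control. What the control mice were given is not stated in the sources used here. All tumours are labelled wild type and were taken on day 10, and each library is bulk RNA from a whole tumour.

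Mast cells are tissue-resident immune cells, frequent in skin, that store histamine, proteases and heparin in granules. They depend on the receptor tyrosine kinase KIT and its ligand, and they release their granules when IgE bound to the high-affinity IgE receptor is crosslinked. Basophils are a rare blood cell that shares the IgE receptor and histamine but carries another protease set. GATA2 is a transcription factor needed for both lineages, and histidine decarboxylase, the product of Hdc, is the enzyme that makes histamine. Hdc is also expressed by neutrophils and other immature myeloid cells, so it does not mark mast cells alone.

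Values are TPM, a measure of transcript abundance that accounts for length and sums to a fixed total, so levels of different genes can be set side by side. The table of anti-CD71 replicate 1 could be used for 13586 of 59881 transcripts. It lists Hdc, Cma1 and Gata2 in full, the Mcpt8 transcript that carries 93.52% of that gene's TPM and a Kit transcript that carries 76.31%. Of Mcpt4, Tpsb2, Cpa3, Ms4a2 and Fcer1a it gives no transcript with a value above 0 in any library, so these 5 are known in 1 treated library only and are missing, not 0, in the other. Accordingly 2 comparisons were made with limma, a linear model fitted over all genes: 2 anti-CD71 against 2 control libraries (1563 genes tested), and anti-CD71 replicate 2 alone against 2 controls (11982 genes tested). The second takes the spread of its single treated library from the controls. Read depth is unknown, and the labels do not say whether libraries of a group came from different mice. Of 8 genes listed for the tumour cells, Krt8 and Krt18 were abundant, at 1255.9 and 893.37 TPM in anti-CD71 replicate 2. In controls Krt8 stood at 1132.27 and 1202.77 TPM and Krt18 at 657.36 and 680.49 TPM. Krt5 was listed at 0 in both controls, and Krt14 there stayed at or under 0.1 TPM. Trp63 stood at 0.18 and 0.32 TPM in controls and Epcam at 0.1 and 0.2 TPM. Cdh1 stood at 2.15 and 1.79 TPM in controls and Egfr at 13.23 and 13.28 TPM.

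The stretches before the start of 6 of the genes are shown: Hdc was called higher, Cma1, Mcpt4, Cpa3 and Fcer1a were each highest in anti-CD71 replicate 2, and Mcpt8 was lowest there. Gata2, Ms4a2 and Tpsb2 were also highest in that library and Kit was lowest there, and they are not shown. The 6 are thus a selection, and a link between a match and a change was not tested. Each sequence is the 250 bases before the start, 5′ to 3′ on the gene's own strand, from RefSeq on GRCm38.p6. All 6 lie on the minus strand, at chr2:126618679-126618928 for Hdc, chr14:55944676-55944925 for Cma1, chr14:56062311-56062560 for Mcpt4, chr3:20242182-20242431 for Cpa3, chr1:173227230-173227479 for Fcer1a and chr14:56085198-56085447 for Mcpt8. Capitals mark the letters that GATA factors are known to bind, searched on both strands. The hexamers searched were AGATAA, the same with another last letter (AGATAG), with another first letter (TGATAA) and with both letters changed (TGATAG).
Hdc: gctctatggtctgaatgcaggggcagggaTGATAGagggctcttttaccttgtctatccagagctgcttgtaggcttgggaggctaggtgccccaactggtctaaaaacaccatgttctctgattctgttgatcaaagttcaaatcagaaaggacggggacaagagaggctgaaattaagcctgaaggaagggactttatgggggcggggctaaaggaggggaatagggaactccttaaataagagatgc
Cma1: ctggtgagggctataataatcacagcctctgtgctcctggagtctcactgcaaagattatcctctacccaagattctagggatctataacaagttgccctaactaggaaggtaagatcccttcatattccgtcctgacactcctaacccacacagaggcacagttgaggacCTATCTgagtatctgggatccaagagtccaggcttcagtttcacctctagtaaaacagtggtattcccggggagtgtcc
Mcpt4: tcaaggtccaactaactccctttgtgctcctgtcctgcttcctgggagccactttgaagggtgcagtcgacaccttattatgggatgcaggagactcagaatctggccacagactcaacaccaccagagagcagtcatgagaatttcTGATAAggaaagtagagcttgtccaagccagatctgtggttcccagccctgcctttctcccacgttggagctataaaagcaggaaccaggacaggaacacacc
Cpa3: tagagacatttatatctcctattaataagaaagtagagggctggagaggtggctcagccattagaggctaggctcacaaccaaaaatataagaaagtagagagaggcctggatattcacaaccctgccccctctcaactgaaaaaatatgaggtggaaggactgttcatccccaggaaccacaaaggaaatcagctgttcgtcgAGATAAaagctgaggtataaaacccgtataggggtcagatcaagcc
Fcer1a: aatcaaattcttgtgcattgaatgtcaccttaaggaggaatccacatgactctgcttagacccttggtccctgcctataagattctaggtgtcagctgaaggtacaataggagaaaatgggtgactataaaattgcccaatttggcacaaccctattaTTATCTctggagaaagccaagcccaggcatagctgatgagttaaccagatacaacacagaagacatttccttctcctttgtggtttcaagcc
Mcpt8: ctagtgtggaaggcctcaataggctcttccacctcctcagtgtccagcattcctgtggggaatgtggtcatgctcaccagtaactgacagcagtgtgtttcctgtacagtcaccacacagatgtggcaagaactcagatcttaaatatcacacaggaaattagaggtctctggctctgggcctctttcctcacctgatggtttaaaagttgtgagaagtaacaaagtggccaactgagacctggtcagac

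A hexamer lay 221 bases before the start in Hdc, 79 in Cma1, 103 in Mcpt4, 46 in Cpa3 and 92 in Fcer1a, counted to its far end, and none lay in the Mcpt8 window. Of the 9 members with a RefSeq window, 6 held a match in it, these 5 and Ms4a2, while the windows of Kit, Mcpt8 and Gata2 held none. Over all 32851 windows of this length, from 27025 genes, 26.5% held one. That share counts windows, while the 6 of 9 counts genes, some with more windows than others, so the units differ. A match is a stretch of letters and not a measured binding site.

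Hdc, the histamine-making enzyme gene, was the member that rose in anti-CD71 tumours. It lies on chromosome 2 from 126593659 to 126624025 in GRCm38.p6, a span that reaches past the window shown above, and its TPM came from the transcript NM_008230. Hdc stood at 7.04 and 7.42 TPM in anti-CD71 libraries, against 2.62 and 1.32 TPM in controls. Both anti-CD71 values lay above both controls and near each other, while the controls differed 1.98-fold. The means were 7.23 ± 0.27 TPM in anti-CD71 libraries and 1.97 ± 0.92 TPM in controls (SD, n = 2 libraries each), a ratio of 3.67. The log2 change of TPM + 1 was 1.51 (SE 0.22, limma adjusted p = 0.0388). Among the 4 members tested in this comparison Hdc was the only one called, against 0.832% of all tested genes called higher and 3.45% called lower. At an unadjusted p under 0.05 limma found 2 of the 4, Hdc and Mcpt8, against 26.6% of all tested genes. By lack of overlap alone Hdc was less unusual, since 28.3% of all tested genes had both anti-CD71 values above both controls. Among changes of libraries and filter, the call was lost without control replicate 1 (log2 change 1.83, limma adjusted p = 0.127), without control replicate 2 (1.18, adjusted p = 0.255) and without anti-CD71 replicate 2 (1.47, adjusted p = 0.0613). It was also lost when genes with 1 TPM in a single library were admitted (adjusted p = 0.0518) and with no filter (adjusted p = 0.171). Its direction held in each of these. In anti-CD71 replicate 2 against the controls Hdc missed the threshold (log2 change 1.54, SE 0.30, limma adjusted p = 0.0672). In bulk RNA, fewer cells of a type and less RNA per cell cannot be told apart, here and for every gene below.

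The summed level of neutrophil markers was also higher in both treated libraries, through some of its genes. Over the 9 of 20 neutrophil genes with transcripts listed for anti-CD71 replicate 1, summed levels were 157.2 and 205.7 TPM in anti-CD71 libraries, against 4.86 and 2.17 TPM in the controls. S100a9 supplied most of this, with 142.39 and 183.5 TPM in anti-CD71 libraries, against 3.67 and 0 TPM in the controls over the same transcripts. The stefin A gene Stfa2l1 had 10.4 and 10.7 TPM in anti-CD71 libraries and was listed at 0 in both controls. Of the 2 neutrophil genes tested over 4 libraries, Stfa2l1 was called (limma adjusted p = 0.000588) and Stfa3, at 1.11 and 7.89 TPM in anti-CD71 libraries and listed at 0 in both controls, was not (limma adjusted p = 0.125). Both met the filter of 1 TPM in 2 libraries only through the anti-CD71 libraries. Their tests were thus tilted towards a rise and are no support beyond the values. Over their listed transcripts Csf3r, Trem1, Elane and Ltf did not stand above both controls in both treated libraries. Csf3r, the receptor gene for the growth factor G-CSF, had 0.68 and 1.09 TPM in anti-CD71 libraries, against 0.83 and 1.34 TPM in controls. These transcripts carry 12.5% of Csf3r TPM, and those listed of Trem1 carry 3.96%. Over all its transcripts Csf3r stood at 10.58 TPM in anti-CD71 replicate 2, against 7.87 and 7.63 TPM in controls. Trem1 stood at 4.46 TPM there, against 6.22 and 4.99 TPM in controls. Over the complete libraries the list summed to 644.83 TPM in anti-CD71 replicate 2, against 81.89 and 97.36 TPM in controls. S100a8 and S100a9 supplied most of it in anti-CD71 replicate 2, at 265.49 and 212.99 TPM. Mmp9 supplied most of it in controls, at 51.94 and 76.33 TPM, against 59.62 TPM in anti-CD71 replicate 2. Elane, Mpo, Ltf, Camp and Ngp stayed under 1 TPM in each complete library. In anti-CD71 replicate 2, 14 of 19 genes found were above both controls. Among all tested genes 39.5% were, but only 7 of the 19 were tested, so these shares cover unlike sets of genes. Limma called 4 of the 7 tested higher, S100a8, S100a9, Hp and Il1r2 (log2 changes 1.95 to 6.09), against 0.476% of all tested genes. These calls were all lost with no filter and with genes at 1 TPM in a single library admitted, and that of Hp also with a pseudocount of 0.1. Of the list, Retnlg, Camp, Ngp, Stfa2l1 and Stfa3 were listed at 0 in both controls. Whether neutrophils were more numerous, and their part in the Hdc rise, was not tested.

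**Figure D1:**
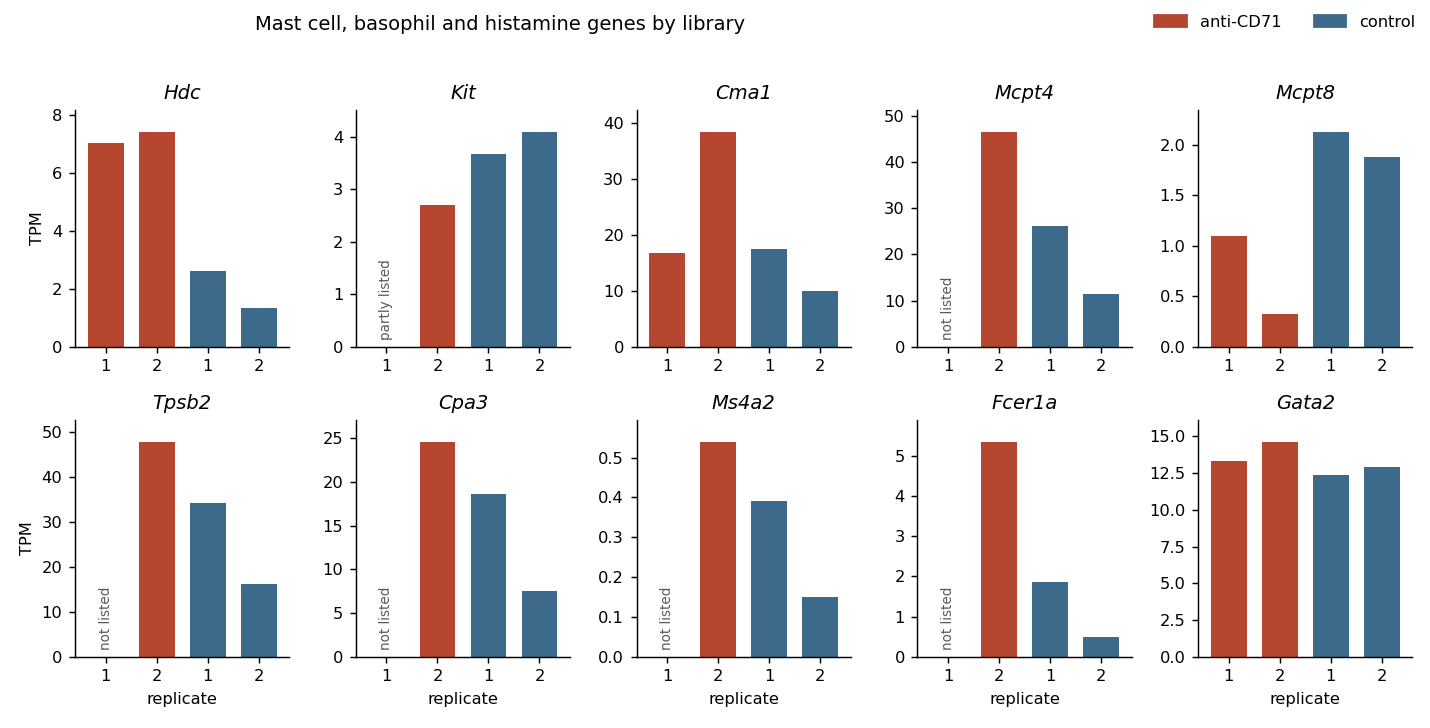
TPM of each of the 10 genes in the 2 anti-CD71 and 2 control libraries, 1 bar per library, each panel with its own axis from 0. For Mcpt8 the bars show the transcript listed in all 4 libraries. Hdc is high in both anti-CD71 libraries, Cma1 in replicate 2 alone, and Mcpt8 is low in both; genes marked as not listed are missing in anti-CD71 replicate 1.

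Among the members, the chymase gene Cma1 was the only granule protease of connective tissue mast cells listed for both treated libraries, and they disagreed. Cma1 stood at 16.64 and 38.38 TPM in anti-CD71 libraries, against 17.35 and 9.96 TPM in the controls. Replicate 1 lay inside the control range and replicate 2 above it, so the groups overlapped. The means were 27.51 ± 15.37 TPM in anti-CD71 libraries and 13.66 ± 5.23 TPM in controls (SD, n = 2 libraries each). The difference did not pass (log2 change 0.89, SE 0.42, limma adjusted p = 0.236). Without anti-CD71 replicate 2 the log2 change of Cma1 was 0.31, and without anti-CD71 replicate 1 it was 1.47. Hdc and Cma1 therefore did not keep a common ratio. Hdc TPM per Cma1 TPM was 0.423 and 0.193 in the anti-CD71 libraries, against 0.151 and 0.133 in the controls. Which cells held the Hdc transcripts of replicate 1 was not tested.

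The other mast cell proteases could be read in anti-CD71 replicate 2 alone. Mcpt4, another chymase, stood at 46.62 TPM in anti-CD71 replicate 2, against 26.27 and 11.39 TPM in controls (log2 change 1.37, SE 0.45, limma adjusted p = 0.155). Tpsb2, a tryptase gene on chromosome 17, stood at 47.78 TPM in anti-CD71 replicate 2, against 34.15 and 16.18 TPM in controls (log2 change 0.99, limma adjusted p = 0.22). Cpa3, the mast cell carboxypeptidase gene on chromosome 3, stood at 24.59 TPM in anti-CD71 replicate 2, against 18.61 and 7.55 TPM in controls (log2 change 0.98, limma adjusted p = 0.272). In the same fit Cma1 had a log2 change of 1.47 (SE 0.30, limma adjusted p = 0.0729). Each of the 4 was above both controls in this library, a position that 39.5% of all tested genes shared, and none passed.

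The spread between the controls was wide for these genes. Control replicate 1 exceeded control replicate 2 by 1.74-fold for Cma1, 2.31-fold for Mcpt4, 2.11-fold for Tpsb2 and 2.46-fold for Cpa3. With Hdc and Fcer1a, 6 of the 10 members were higher in control replicate 1 by at least 0.5 on the log2(TPM + 1) scale, a size chosen after the values were seen, against 1.03% of all tested genes. The 4 proteases together summed to 157.37 TPM in anti-CD71 replicate 2, against 96.38 and 45.08 TPM in controls. The sum in anti-CD71 replicate 2 was 2.22 times the control mean, and the 2 controls differed 2.14-fold.

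The make-up of the 4 proteases differed less between libraries than their sum. Tpsb2 made up 30.4% of it in anti-CD71 replicate 2, against 35.4% and 35.9% in controls, and Mcpt4 made up 29.6% in anti-CD71 replicate 2, against 27.3% and 25.3% in controls. Cma1 made up 24.4% in anti-CD71 replicate 2, against 18.0% and 22.1% in controls, and Cpa3 15.6% in anti-CD71 replicate 2, against 19.3% and 16.7% in controls. The transcripts of a gene kept a similar order too. The main Tpsb2 transcript, NM_010781, held 74.7% of the gene's TPM in anti-CD71 replicate 2, against 71.0% and 75.6% in controls. For Cpa3 the transcript NM_007753 held 98.7% in anti-CD71 replicate 2, against 91.7% in control replicate 1 and all of it in control replicate 2. Chymase and tryptase genes belong to families of similar sequence, so how the authors' program shared reads between relatives could shift these values.

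**Figure D2:**
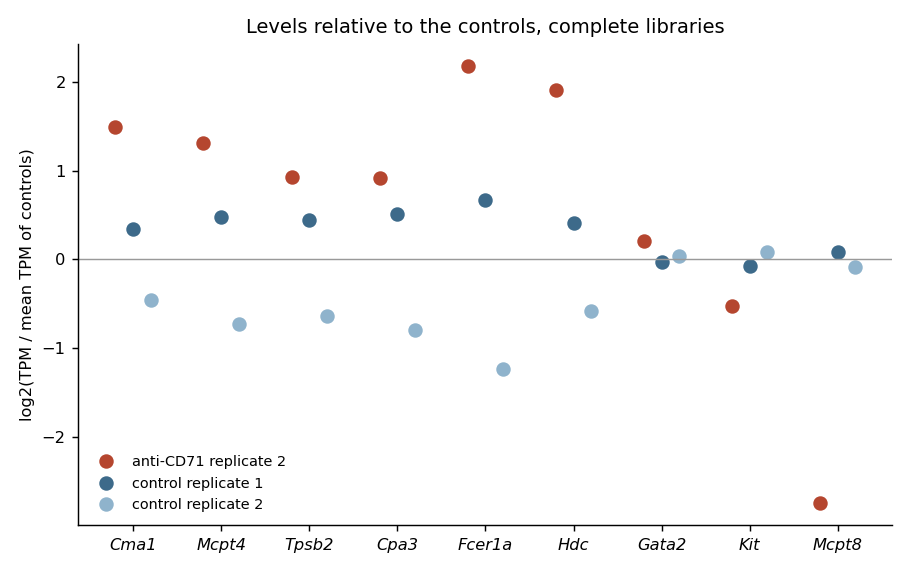
Levels of 9 members in the 3 complete libraries as log2 of TPM over the mean TPM of the 2 controls, 1 point per library. For Cma1, Mcpt4, Tpsb2, Cpa3, Fcer1a and Hdc the order is the same, with anti-CD71 replicate 2 highest and control replicate 2 lowest; Kit and Mcpt8 are lowest in anti-CD71 replicate 2.

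Epidermis genes also stood high in anti-CD71 replicate 2. The epidermis list of 11 genes summed to 102.25 TPM there, against 2.67 and 1.92 TPM in controls, with 11 of 11 above both controls. Among all tested genes 39.5% held that position, but only 1 of the 11 was tested, so the 2 shares cover unlike sets. Its genes Krt1, Krt5, Krt15, Lor, Ivl and Flg were listed at 0 in both controls. Krt14 and Krt5, which supplied most of the sum, are also among the 8 genes listed for the tumour cells, as is Trp63. The sum is thus not one of skin genes alone. In anti-CD71 replicate 1 the epidermal genes with listed transcripts were Krt16 and Trp63. Krt16, a keratin of activated epidermis, stood at 3.69 and 7.31 TPM in anti-CD71 libraries, against 2.37 and 1.46 TPM in the controls. It did not pass over 4 libraries (log2 change 1.12, limma adjusted p = 0.109). Its call in anti-CD71 replicate 2 against the controls (log2 change 1.53) was lost under every alternative setting tested. Krt16 was the only epidermis gene tested there, since the filter asked for 1 TPM in 2 libraries and the others were under 1 TPM in both controls. Krt14 and Krt5 were left out in this way, at 36.37 and 31.4 TPM in anti-CD71 replicate 2. The listed Trp63 transcripts, 4.86% of that gene's TPM, had 0.04 and 0 TPM in anti-CD71 libraries, against 0.04 and 0.05 TPM in controls. Whether attached skin was present, and its part in the protease values, was not tested.

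Mcpt8, a protease gene that in mice marks basophils, was lower in anti-CD71 libraries. Over the transcript listed in all 4 libraries it stood at 1.1 and 0.32 TPM in anti-CD71 libraries, against 2.13 and 1.88 TPM in the controls. Both anti-CD71 values lay below both controls, as for 31.1% of all tested genes. The means were 0.71 ± 0.55 TPM in anti-CD71 libraries and 2.0 ± 0.18 TPM in controls (SD, n = 2 libraries each). The difference did not pass (log2 change -0.85, SE 0.26, limma adjusted p = 0.125). Over the complete libraries Mcpt8 was at 0.32 TPM in anti-CD71 replicate 2, against 2.28 and 2.03 TPM in controls, which also missed the threshold (log2 change -1.26, SE 0.22, limma adjusted p = 0.0572). Without anti-CD71 replicate 1, over the genes listed in all 4 libraries, it passed (log2 change -1.19, limma adjusted p = 0.0486). At levels this low the TPM + 1 scale understates a change, and with a pseudocount of 0.1 the log2 change over 4 libraries was -1.57 (limma adjusted p = 0.151).

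Cma1, Mcpt4 and Mcpt8 lie in a single protease cluster on chromosome 14, where neighbours had unlike levels. In GRCm38.p6 Cma1 spans 55941451 to 55944675, Mcpt4 56059744 to 56062310 and Mcpt8 56082163 to 56085499. Mcpt8 begins 19.9 kb beyond the end of Mcpt4, which was highest in anti-CD71 replicate 2. From Cma1 to Mcpt8 the annotation holds 7 protein-coding genes, and of the 6 with values the other 3, Cma2, Mcpt1 and Mcpt2, stayed under 1 TPM in each complete library. Mcpt1 and Mcpt2, proteases of mucosal mast cells in mice, were at 0 and 0.26 TPM in anti-CD71 replicate 2. In the controls Mcpt1 was at 0 in both, and Mcpt2 was at 0.55 and 0.91 TPM. Levels were thus highest for the chymases of connective tissue mast cells.

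The subunit genes of the IgE receptor had unlike values. Fcer1a, on chromosome 1, which encodes the alpha chain that binds IgE, stood at 5.35 TPM in anti-CD71 replicate 2, against 1.87 and 0.5 TPM in controls. That value is 4.51 times the control mean, but the controls differed 3.74-fold and the change did not pass (log2 change 1.61, SE 0.41, limma adjusted p = 0.103). Ms4a2, on chromosome 19, which encodes the signal-amplifying beta chain, stood at 0.54 TPM in anti-CD71 replicate 2, against 0.39 and 0.15 TPM in controls, too low to enter the test. Its TPM came from different transcripts, NM_013516 alone in anti-CD71 replicate 2 and XM_017318060 alone in control replicate 2. The gamma chain gene Fcer1g, which is shared with IgG receptors and widely expressed in myeloid cells, fell to 173.19 TPM in anti-CD71 replicate 2, against 277.11 and 320.02 TPM in controls (log2 change -0.78, SE 0.10, limma adjusted p = 0.0376).

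No change of Kit or Gata2 passed the test. Kit, on chromosome 5, stood at 2.7 TPM in anti-CD71 replicate 2, against 3.67 and 4.1 TPM in controls, and did not pass (log2 change -0.40, SE 0.16, limma adjusted p = 0.216). Its transcript NM_021099, listed in all 4 libraries, was at 2.06 and 1.89 TPM in anti-CD71 libraries, against 2.76 and 3.34 TPM in the controls. Both anti-CD71 values of it were below both controls, a position that 31.1% of all genes tested over 4 libraries held. With genes admitted from 50% of their TPM listed, Kit had a log2 change of -0.44 (limma adjusted p = 0.173). Kit is also a melanocyte gene, and the melanocyte list summed to 10.77 TPM in anti-CD71 replicate 2, against 7.06 and 8.06 TPM in controls, with Tyrp1, Mlana and Sox10 listed at 0 in both controls. Mitf, the only gene of that list with 1 TPM in 2 libraries and so tested, stood at 6.05 TPM in anti-CD71 replicate 2, against 6.83 and 7.89 TPM in controls (log2 change -0.24), and did not pass.

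Gata2, on chromosome 6, stood at 13.31 and 14.63 TPM in anti-CD71 libraries, against 12.37 and 12.94 TPM in the controls. Both anti-CD71 values lay above both controls, as for 28.3% of all genes tested over 4 libraries. The change was small and did not pass (log2 change 0.13, SE 0.09, limma adjusted p = 0.408). Gata2 is also expressed in endothelium, whose list of 10 genes summed to 75.49 TPM in anti-CD71 replicate 2, against 93.66 and 99.49 TPM in controls.

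**Figure D3:**
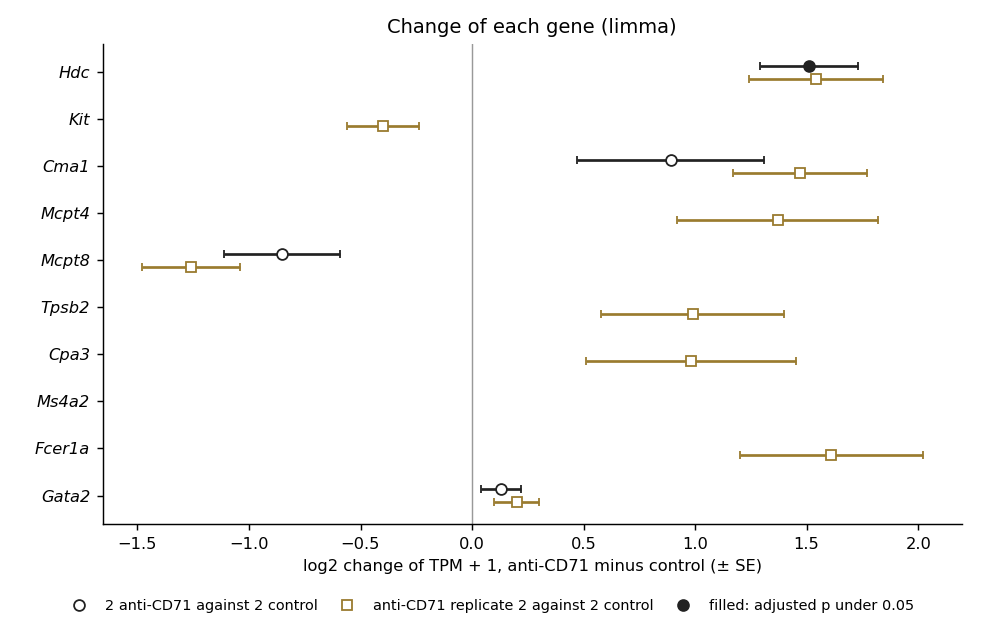
Log2 change of TPM + 1 with its standard error for each member, anti-CD71 minus control, over 4 libraries (circles) and for anti-CD71 replicate 2 against the controls (squares). The filled circle of Hdc is the only change past an adjusted p of 0.05, and Ms4a2 was too low to be tested.

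In anti-CD71 replicate 2 against the controls, 8 of the 10 members were above both controls and 2, Kit and Mcpt8, below both. Among all tested genes 39.5% were above both controls and 42.5% below. Limma called 0 of the 9 tested members, against 0.476% of all tested genes called higher and 2.39% called lower. At an unadjusted p under 0.05 it found 5 of the 9, against 24.7% of all tested genes. The median log2 change of the 9 was 0.99, and that of all tested genes was -0.01.

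Histamine handling beyond its synthesis was little expressed. Of 9 genes for transport, breakdown and receptors, 8 had values and 2 were high enough to test in the complete libraries, with 0 called by limma and 0 at an unadjusted p under 0.05. Hnmt, the enzyme that methylates and so inactivates histamine in cells, stood at 2.37 TPM in anti-CD71 replicate 2, against 2.01 and 2.19 TPM in controls (log2 change 0.12, limma adjusted p = 0.718). The receptor gene Hrh2 stood at 0.7 TPM in anti-CD71 replicate 2, against 1.15 and 1.24 TPM in controls (log2 change -0.37, limma adjusted p = 0.379). Slc18a2, the vesicular monoamine carrier that loads histamine into granules, was at 1.47 TPM in anti-CD71 replicate 2, against 0.96 and 0.92 TPM in controls. Aoc1, the secreted histamine oxidase, was listed at 0 in each complete library, and Hrh1 and Hrh4 at 0 in anti-CD71 replicate 2, against at most 0.04 and 0.1 TPM in controls.

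Of 33 other mast cell and basophil genes, 28 had values and 15 were tested in the complete libraries, of which 0 were called higher and 2 lower by limma (7 at an unadjusted p under 0.05), with a median log2 change of -0.24. Over all tested genes 0.476% were called higher, 2.39% lower and 24.7% had an unadjusted p under 0.05, and the median was -0.01. Those 2 were Fcer1g and Ctsg, which encodes cathepsin G, a protease of mast cells and neutrophils. Ctsg stood at 6.53 and 1.16 TPM in anti-CD71 libraries, against 7.33 and 10.21 TPM in the controls. It fell in anti-CD71 replicate 2 (log2 change -2.16, limma adjusted p = 0.0266), but over 4 libraries it did not pass (-1.26, limma adjusted p = 0.219). Among the abundant genes of the list, Cd63 (log2 change 0.12), Srgn (-0.07) and the interleukin-33 receptor gene Il1rl1 (0.26) did not pass. Siglece, an inhibitory receptor gene of myeloid cells, had a log2 change of -1.21 and did not pass either (limma adjusted p = 0.125).

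Of 17 genes for KIT and IgE receptor ligands and signalling, 16 had values and 14 were tested, of which 0 rose and 4 fell by limma (8 at an unadjusted p under 0.05), with a median log2 change of -0.32. These counts stand beside the same 2.39% called lower, 24.7% at that unadjusted p and median of -0.01 over all tested genes. Besides Fcer1g these were Lcp2, the adaptor SLP-76 (log2 change -0.95, limma adjusted p = 0.0316), the kinase gene Btk (-0.72, limma adjusted p = 0.0491) and the phospholipase gene Plcg2 (-0.83, limma adjusted p = 0.0496). With no filter, or with genes at 1 TPM in a single library admitted, none of these 4 calls held (limma adjusted p between 0.136 and 0.228), and neither did that of Ctsg (0.129 and 0.209). Btk and Plcg2 also missed the threshold with median scaling and with a pseudocount of 0.1 (limma adjusted p between 0.0501 and 0.0511). All 4 genes are expressed in macrophages as well, and the macrophage list of 12 genes summed to 2059.06 TPM in anti-CD71 replicate 2, against 3906.11 and 4708.8 TPM in controls, with 8 of 12 called lower, namely C1qa, C1qb, C1qc, Csf1r, Cd14, Cd68, Itgam and Msr1 (log2 changes -1.37 to -0.48). The part of macrophages in these falls was not tested. Among markers of other cells, limma also called Klrg1 (log2 change -1.96), Cd83 (-1.60), Irf8 (-0.80) and Lyl1 (-1.05) lower and Krt18 (0.42) higher in anti-CD71 replicate 2. These calls, and those of the macrophage list, were all lost with no filter. Over 4 libraries Klrg1 did not pass (log2 change -1.45, limma adjusted p = 0.0679), while Cd83 did (-1.33, limma adjusted p = 0.0388). Kitl, the ligand of KIT, stood at 49.48 TPM in anti-CD71 replicate 2, against 46.49 and 46.35 TPM in controls (log2 change 0.09, limma adjusted p = 0.538). Il33, which activates mast cells, stood at 4.97 TPM in anti-CD71 replicate 2, against 0.93 and 3.77 TPM in controls (log2 change 0.98, limma adjusted p = 0.32). Grb2 (log2 change -0.02) and Lyn (-0.42) did not pass.

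**Figure D4:**
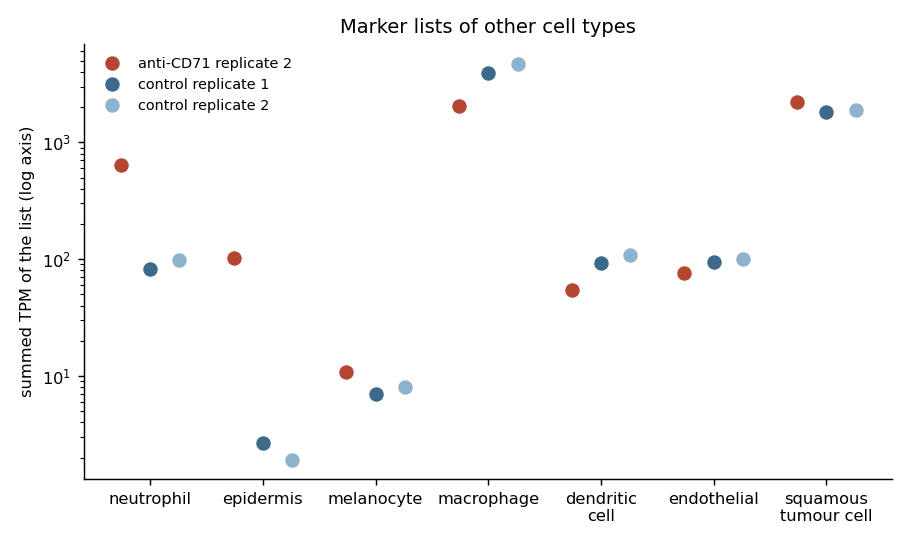
Summed TPM, on a log axis, of marker lists of other cell types in the 3 complete libraries, 1 point per library. Neutrophil and epidermis lists are highest in anti-CD71 replicate 2, at 644.83 and 102.25 TPM, and the macrophage list is lowest there, at 2059.06 TPM.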

How the data were processed

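Bulk tumour RNA was sequenced in 2 anti-CD71 and 2 control libraries. BGI extracted the RNA with TRIZOL and made the libraries, per the labels' protocols. The authors deposited TPM per RefSeq transcript, written to hundredths. The submitters' processing notes name GRCm38.p6 as the build, and for the aligner and quantifier a name is not given in the sources used here. Since TPM holds no depth, counting intervals are left out. The table of anti-CD71 replicate 1 breaks off inside a line after 13586 whole entries (22.69% of transcripts), in the order of the other tables, and transcripts beyond are missing.

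A RefSeq gene table of GRCm38.p6 named 58425 of 59881 transcripts, and TPM were added per gene. Unnamed transcripts held 1.42% to 1.55% of a complete library. Limma 3.58.1 (R 4.3.3) was run on log2(TPM + 1) with an intensity trend, for genes with at least 1 TPM in 2 libraries, and Benjamini-Hochberg adjustment over all tested genes (threshold 0.05). Over 4 libraries a gene counted if its shared transcripts held at least 90% of its TPM. The SD of log2 differences was 0.294 between the anti-CD71 libraries and 0.222 between the controls, so standard errors over 3 libraries rest on the smaller spread.

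The members, the 12 other gene lists and the tests were chosen with earlier results of these data known. All members were named, and of other lists the genes called in anti-CD71 replicate 2 against the controls plus, for mast cell, histamine and signalling lists, some with the highest TPM or largest change. Further marker genes were named after their values were seen. The scripts were tested on simulated data.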

Additional observations from a re-analysis of the deposited data

How the results depend on the processing

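Over 4 libraries limma called 13 genes higher and 54 lower, with Hdc the 1 member called higher and 0 called lower. With no filter it called 1 higher and 0 lower (435 at an unadjusted p under 0.05, 2 of them members), with 1 TPM in 1 library 1 higher and 7 lower, and 0 members in both. The labels number the replicates alike in both groups, but the deviations of same-numbered libraries did not go together (r = -0.01 across 1563 genes, which are not independent). With the replicate block 2 genes were called higher, 1 lower and 0 members (Hdc adjusted p = 0.0864). Leaving out 1 library at a time gave 1 to 35 genes higher, 0 to 61 lower, 0 to 1 members higher and 0 to 1 members lower. Hdc held in 4 of 10 alternatives (log2 change 1.18 to 1.90, adjusted p from 0.0406 to 0.255).

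For anti-CD71 replicate 2 against the controls limma called 57 genes higher and 286 lower. With no filter it called 0 and 0 (3401 at an unadjusted p under 0.05), and with 1 TPM in 1 library 60 and 12. No member was called under the 4 alternatives with a test, and 5 of the members had an unadjusted p under 0.05 in 3 of them and 1 with no filter. Leaving out a control leaves 1 library against 1, so values without a test were computed, and the log2 change of Grb2 was -0.06 without control replicate 1 and turned to 0.01 without control replicate 2. Every member kept its direction under each alternative run. The causes of these shifts were not tested, and depth is unknown.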

Other observations

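A few further mast cell genes were too low to test in the complete libraries and are given as values, chosen after their values were seen. Mrgprb2, a receptor of connective tissue mast cells in mice that responds to basic peptides and drugs, was at 1.0 TPM in anti-CD71 replicate 2, against 0.7 and 0.2 TPM in controls. Its relatives Mrgprb1 and Mrgprx2 were at 1.5 and 0.5 TPM in anti-CD71 replicate 2, against 0.89 and 0.62 TPM (Mrgprb1) and 0.26 and 0.14 TPM (Mrgprx2) in controls. Cd200r3, a receptor of mast cells and basophils, was at 0.77 TPM in anti-CD71 replicate 2, against 0.47 and 0.33 TPM in controls. Other low genes of the same list lay the other way: Mcpt2 was at 0.26 TPM in anti-CD71 replicate 2, against 0.55 and 0.91 TPM in controls, and Tph1, which makes serotonin, was at 0.2 TPM in anti-CD71 replicate 2, against 0.37 and 0.42 TPM in controls. Over the 28 genes of the list with values, 11 were above both controls and 13 below both, against 39.5% and 42.5% of all tested genes. Only 15 of the 28 were tested, so these shares cover unlike sets of genes. Eosinophil genes were near 0, with Epx listed at 0 in each complete library, and the 5 genes found summed to 0.76 TPM in anti-CD71 replicate 2, against 0.76 and 4.15 TPM in controls, of which Ear2 supplied 3.95 TPM in control replicate 2.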
